A study of Mus musculus with 2 samples.

Results

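The endothelial nuclei of the mouse vagus nerve ganglia are described here. A nucleus was taken as endothelial where 7 genes of vessel lining cells, *Pecam1*, *Ptprb*, *Adgrl4*, *Cyyr1*, *Emcn*, *Flt1* and *Cldn5*, gave at least 4 unique molecular identifiers (UMIs, each a captured RNA molecule) and at least 15 per 10000 of its UMIs. The rule found 432 of the 8714 nuclei, which is 4.96%. The ganglia came from Rosa26-floxed-STOP-Cas9-eGFP mice on the C57BL/6J background, fed standard chow, bought at 8 to 9 weeks of age, and killed 4 weeks after the liver had been injected with AAVrg-Cre, a Cre virus taken up by nerve endings. Nuclei of 14 ganglia of 7 female mice were pooled into 1 library, and those of 16 ganglia of 8 male mice into the other. All mice carried the same allele and received the same virus, so that no uninjected mouse stands beside them. The single nuclei were not labelled by sex, and a library was taken as female or male because its number of nuclei is the one stated for that sex. With 1 library of each sex, sex and library cannot be told apart, no test between the sexes was run and p-values are not given. Levels are UMIs per 10000 UMIs, and their 95% intervals are exact Poisson intervals that cover counting error only, not the spread between mice.

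Endothelial cells line every blood vessel. They meet at junctions that contain VE-cadherin and claudin 5, they answer growth factors of the VEGF and angiopoietin families, and ETS and SOX family transcription factors keep their identity. Along the vessel tree they differ between arteries, capillaries and veins, and in nerve and brain they carry transporters that move nutrients in and drugs out. The vessels within sensory ganglia are known to be more permeable than those within the nerve.

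Endothelial nuclei were 233 of 3791 in the female library, a share of 6.15% (exact Clopper-Pearson interval 5.40–6.96), and 199 of 4923 in the male library, a share of 4.04% (3.51–4.63). They held 802597 and 754365 UMIs, with medians of 2488 and 2476 UMIs per nucleus. The depth per nucleus was thus close in both libraries, and it was also close to that of the other nuclei, whose medians were 2378 and 2676 UMIs. Members had between 4 and 148 UMIs of the rule genes with a median of 12, and levels of these genes from 15 to 149 per 10000 with a median of 44.9. UMIs of at least 2 of the 7 genes were found in 425 members, and of at least 3 in 378. Just outside the rule were 15 nuclei with 3 such UMIs at 15 or more per 10000, and 42 nuclei with 4 or more UMIs at 10 to 15 per 10000. No UMI of a rule gene was found in 6537 nuclei. The rule chose the members by these values, so they are a description. The libraries shared 8 barcode sequences, none of them among the members.

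**Figure D1:**
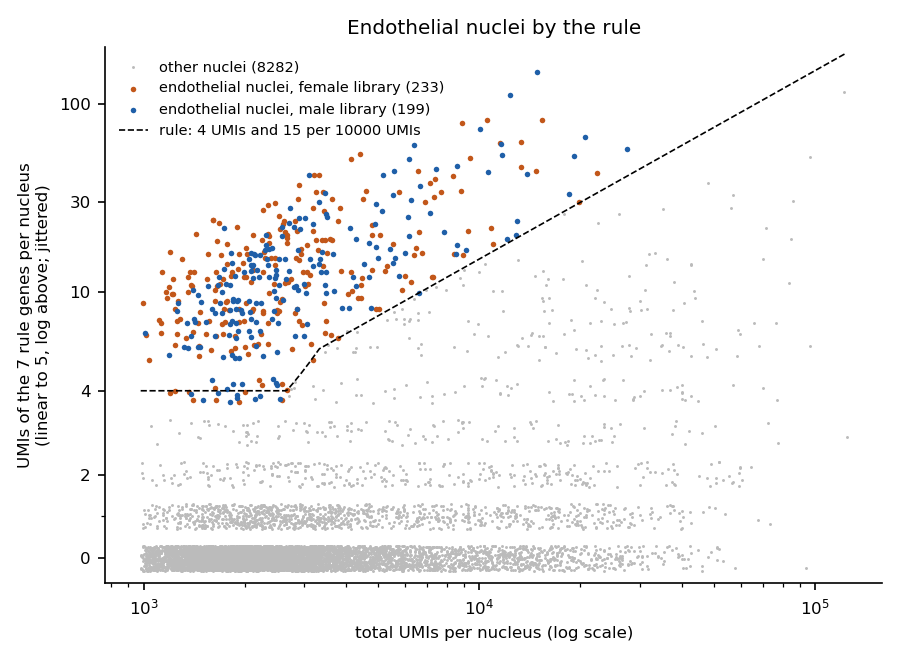
Total UMIs of each nucleus (x axis, log scale) against its UMIs of the 7 rule genes (y axis, linear to 5 and log above, points jittered), with 233 female and 199 male endothelial nuclei in colour, 8282 other nuclei in grey and the rule as a dashed line. Members lie on or above the dashed line, apart from the jitter, and 6537 of the other nuclei lie at 0.

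The rule genes lie on mm10 at chr11:106654217-106750628 (*Pecam1*, an adhesion molecule between endothelial cells), chr10:116275523-116389535 (*Ptprb*, a phosphatase that acts on VE-cadherin and Tie2), chr3:151437887-151545086 (*Adgrl4*, an adhesion G protein-coupled receptor), chr16:85421533-85553397 (*Cyyr1*), chr3:137341067-137432185 (*Emcn*, a sialomucin of veins and capillaries), chr5:147561604-147726011 (*Flt1*, a VEGF receptor) and chr16:18776847-18778262 (*Cldn5*, the claudin of endothelial tight junctions). *Pecam1* stood at 8.52 UMIs per 10000 (7.90–9.19) in the female and 4.60 (4.13–5.11) in the male endothelial nuclei, against 0.116 and 0.0650 in the other nuclei. *Flt1* stood at 11.1 (10.4–11.8) and 12.8 (12.0–13.6), against 0.364 and 0.368. *Cldn5* stood at 2.03 (1.73–2.37) and 4.15 (3.70–4.64). All of these genes are far above the other nuclei in both libraries, which the rule fixes. After thinning to 1000 UMIs, 43.6% of 431 members kept a UMI of *Pecam1*, against 0.518% of 193 macrophage nuclei, a cell type that can also make it (median depth 2477 UMIs in members and 1895 in macrophage nuclei). The rule sets this contrast too, as it chose members partly by *Pecam1*, and macrophage nuclei that met it were left out. Without thinning the share of members was 70.4%. Genes that the rule did not use give a check of the label: after thinning a UMI of *Mecom* was found in 73.1% of members and 1.55% of macrophage nuclei, and of *Tek*, *Erg* and *Sox17* in 26.9%, 19.7% and 11.8% of members and in no macrophage nucleus, where 0 of 193 allows up to 1.55%. These genes are known from endothelium, though *Fli1* does not set the members apart from macrophage nuclei.

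Promoters were looked at for the genes of the rule, transcription factor and junction lists, most but not all of which are past the fold. RefSeq promoters on GRCm38.p6, from 250 bases before to 50 bases after a start, were in hand for 22 of the 40 genes, with 28 starts. They were searched on both strands for CAGGAAG and CCGGAAG, a pair of ETS family motifs, and for TAAACA, a forkhead motif. The 3 sequences shown each hold CAGGAAG, 5′ to 3′ on the strand of the gene, with the motif in capitals (as CTTCCTG where it lies on the other strand).
Emcn promoter, chr3:137340828-137341127, plus strand: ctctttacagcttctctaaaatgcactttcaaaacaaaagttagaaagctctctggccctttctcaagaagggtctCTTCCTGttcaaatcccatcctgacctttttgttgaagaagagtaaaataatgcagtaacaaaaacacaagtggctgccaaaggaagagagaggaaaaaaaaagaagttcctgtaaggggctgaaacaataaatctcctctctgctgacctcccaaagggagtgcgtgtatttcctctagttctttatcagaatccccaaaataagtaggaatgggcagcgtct
Cyyr1 promoter, chr16:85550324-85550623, minus strand: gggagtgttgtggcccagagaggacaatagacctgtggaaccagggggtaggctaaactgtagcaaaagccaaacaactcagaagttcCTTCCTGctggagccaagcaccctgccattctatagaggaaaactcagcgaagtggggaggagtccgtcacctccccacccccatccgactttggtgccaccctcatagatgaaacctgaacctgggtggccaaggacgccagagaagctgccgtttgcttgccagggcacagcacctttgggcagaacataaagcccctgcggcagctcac
Erg promoter, chr16:95459299-95459598, minus strand: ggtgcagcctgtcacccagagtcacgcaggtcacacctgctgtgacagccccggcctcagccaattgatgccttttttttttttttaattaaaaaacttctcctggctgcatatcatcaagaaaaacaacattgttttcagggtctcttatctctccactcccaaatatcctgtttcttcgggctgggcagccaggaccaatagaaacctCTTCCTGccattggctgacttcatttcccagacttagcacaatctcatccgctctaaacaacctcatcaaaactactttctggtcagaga
CAGGAAG was found in 5 of the 28 promoters (17.9%) and in 13.3% of all 32851 RefSeq promoters of that length. CCGGAAG was found in 1 (3.57%) against 8.86%, and TAAACA in 3 (10.7%) against 13.4%. The shares rest on 1 to 5 promoters each, lie on both sides of those of all promoters, and describe letters, not sites.

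Before the gene results, the makeup of the 432 nuclei needs to be known. They were split into 7 clusters by their own expression, and 3 of the clusters were led by genes of other cell types. Cluster 4 (48 nuclei, 24 female and 24 male) was led by genes of brown fat and fatty acid use such as *Cpt1b*, *Dio2*, *Plin1* and *Ppara*. Its adipocyte markers summed to 31.7 UMIs per 10000 UMIs (28.8 to 34.9) in its female nuclei and to 5.94 (4.54 to 7.63) in its male nuclei, and its Schwann markers to 44.2, against 9.82 to 13.2 in the other clusters. At a Leiden resolution of 1 there were a cluster of 31 nuclei led by fat genes, 24 female and 7 male, and a cluster of 38, 15 female and 23 male, with Schwann markers at 59.8. Cluster 5 (47 nuclei, 32 and 15) was led by neuronal genes such as *Trhde*, *Nxph1*, *Gabra6* and *Kcnd2*, and had a median of 6239 UMIs per nucleus. Its granule cell markers, *Gabra6* among them, summed to 10.7 UMIs per 10000 UMIs (9.41 to 12.2) in its female nuclei and to 0.128 (0.015 to 0.461) in its male nuclei, and at a Leiden resolution of 1 a cluster of 25 nuclei, 24 female and 1 male, held them at 12.8. Cluster 6 (37 nuclei, 15 and 22) was led by genes of barrier fibroblasts such as *Slc6a20a*, *Slc6a13* and *Slc13a4*. The leading genes of clusters were picked after their values were seen. Together these 3 clusters hold 132 nuclei (30.6%), and their rule genes stood at 32.3 UMIs per 10000, against 58.9 in the other 4 clusters. These nuclei thus hold genes of other cell types beside the rule genes, and the label of endothelial cells is less sure for them. Mural cells, which wrap vessels, met their own rule of the same form (at least 4 UMIs and 15 per 10000 of *Rgs5*, *Pdgfrb*, *Notch3*, *Abcc9*, *Kcnj8*, *Cspg4* and *Myh11*) in 26 of the members, 6 female and 20 male. A barrier fibroblast rule (*Slc6a20a*, *Slc6a13*, *Cldn1* and *Slc47a1*) was met by 11 members and a macrophage rule (*Mrc1*, *F13a1*, *Csf1r*, *Cd163* and *Ptprc*) by 1, and 38 (8.80%) met any of the 3. Whether such nuclei are doublets was not tested. Results that rest on these nuclei are therefore given also for the 281 nuclei (159 female and 122 male) outside clusters 4, 5 and 6 and outside the 3 rules.

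A gene was compared with all other nuclei where its UMIs in the endothelial nuclei, plus those expected there at its level in the other nuclei, came to at least 20, as for 12459 genes. A gene is called past the fold where its level was at least 2-fold higher (or lower) in both libraries. 930 genes (7.46%) were past the fold upwards and 714 (5.73%) downwards, with a median log2 ratio over all genes of 0.10. In the 281 nuclei the counts were 909 and 930, with 712 and 480 genes shared with the first counts. Of the listed endothelial genes, every one of 17 transcription factors and 12 of 13 receptors compared were past the fold upwards, and none of any endothelial list was past it downwards. The lists were chosen for endothelial cells, so this is a description of them.

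Among the receptors the median log2 ratio was 4.26. *Tek* encodes Tie2, the angiopoietin receptor, and stood at 3.48 UMIs per 10000 (3.08–3.91) in the female and 2.56 (2.21–2.95) in the male endothelial nuclei, against 0.121 and 0.120 in the other nuclei. *Tie1*, its orphan partner, stood at 0.860 (0.669–1.09) and 0.544 (0.390–0.737), against 0.0168 and 0.0071. *Kdr*, the main VEGF receptor, stood at 1.08 (0.868–1.34) and 0.809 (0.619–1.04), against 0.0607 and 0.0426. All 3 were far above the other nuclei in both libraries, and between the libraries the intervals overlapped for *Tie1* and *Kdr* but not for *Tek*. *Eng*, a co-receptor for BMP9, had a log2 ratio of 5.30 (5.03 to 5.58). *Nrp1*, which binds VEGF and semaphorins, was present in other nuclei too, at 1.51 and 1.06, and had a log2 ratio of 1.63 (1.51 to 1.75). *Ednrb*, the endothelin B receptor, which satellite glia also make, was the receptor not past the fold, with a log2 ratio of -0.01 (-0.42 to 0.35). *Flt4* (30 UMIs) and *Aplnr* (24 UMIs) were low.

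The transcription factors had a median log2 ratio of 4.10. *Sox17*, a factor of arterial endothelium, stood at 1.15 UMIs per 10000 (0.924–1.41) in the female and 1.42 (1.16–1.71) in the male endothelial nuclei, against 0.0120 and 0.0134 in the other nuclei, a log2 ratio of 6.62 (6.20 to 7.09). *Erg*, an ETS factor that keeps endothelial identity, stood at 2.33 (2.01–2.69) and 1.63 (1.36–1.95), against 0.0631 and 0.0258. *Fli1*, its close relative, stood at 6.69 (6.14–7.28) and 6.67 (6.10–7.28), and macrophage nuclei hold it too: after thinning, 44.8% of members and 47.7% of macrophage nuclei had a UMI. *Sox7*, *Sox18*, *Tal1* and *Bcl6b*, all known from early vessel development, had log2 ratios between 5.44 and 5.78. *Klf2*, which laminar flow induces, had 4.04, and *Mef2c* and *Meox2* had 2.05 and 1.89. *Lyl1* (6 UMIs) and *Meox1* (10 UMIs) had too few UMIs to be compared.

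Of the 12 junction genes compared, 9 were past the fold upwards, with a median log2 ratio of 1.84. *Cdh5*, which encodes VE-cadherin, stood at 1.87 (1.58–2.19) and 1.70 (1.42–2.02) UMIs per 10000, against 0.238 and 0.152 in the other nuclei. *Esam*, an adhesion molecule of endothelial tight junctions, had a log2 ratio of 4.69 (4.43 to 4.94), and *Ocln*, a tight junction strand protein, 2.68. *Tjp1*, a scaffold that epithelial and glial cells also use, had 1.61 (1.52 to 1.70). The 3 genes not past the fold were *Jam3*, *Mcam* and *Pcdh17*, with log2 ratios of -0.04, 0.21 and 0.15. *Cgn* and *Pcdh12* had 2 and 10 UMIs and were not compared.

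**Figure D2:**
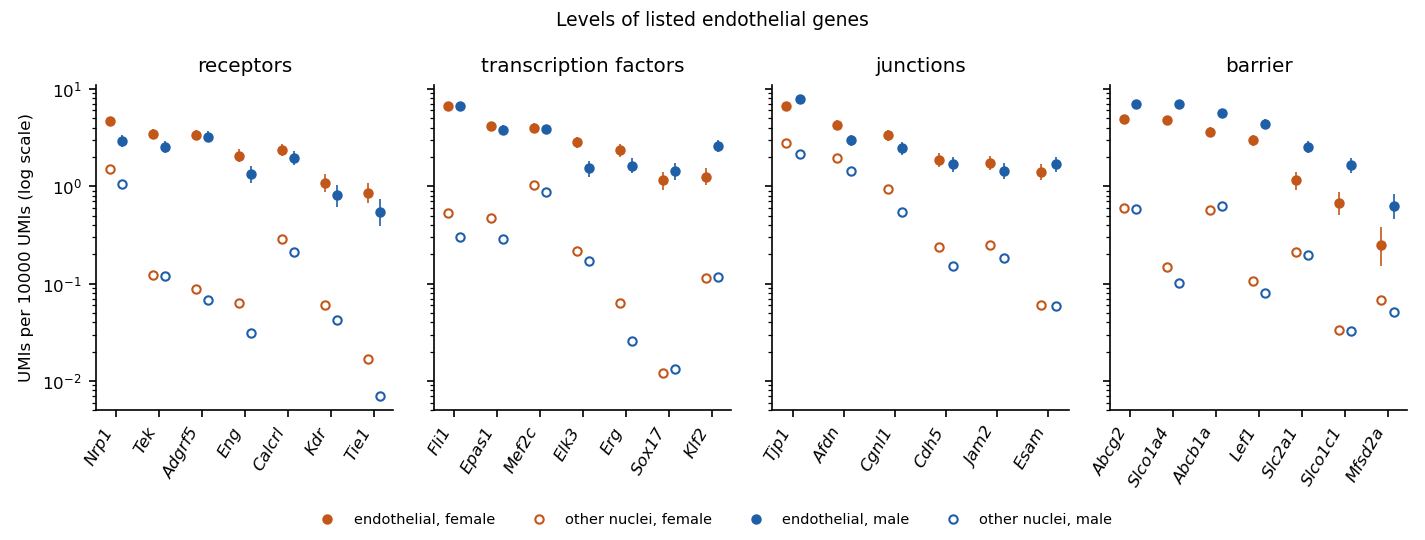
Levels of 27 listed genes in UMIs per 10000 UMIs (log scale), in the endothelial nuclei (filled, with 95% Poisson intervals) and in all other nuclei (open), for the female and the male library. Every gene shown is higher in the endothelial nuclei of both libraries, by the widest margins for *Sox17*, *Tie1* and *Slco1a4* in their panels and by a narrow one for *Nrp1* and *Afdn*.

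Barrier genes make vessel walls selective. Of 17 compared, 13 were past the fold upwards, with a median log2 ratio of 2.81, and their summed level was 29.9 UMIs per 10000 (28.7–31.1) in the female and 45.5 (44.0–47.0) in the male endothelial nuclei, against 7.29 in the other nuclei. *Slco1a4*, an organic anion transporter of barrier endothelium, stood at 4.77 (4.31–5.27) and 6.92 (6.34–7.54), against 0.149 and 0.101. *Slco1c1*, which carries thyroid hormone, stood at 0.673 (0.505–0.878) and 1.64 (1.37–1.96), against 0.0337 and 0.0325. *Lef1*, the nuclear partner of beta-catenin in Wnt signalling that sets up the barrier, had a log2 ratio of 5.32 (5.14 to 5.51). The efflux pumps *Abcb1a* (P-glycoprotein) and *Abcg2* had 2.93 (2.81 to 3.05) and 3.33 (3.22 to 3.43), and *Slc2a1*, the glucose transporter GLUT1, 3.17 (2.97 to 3.36). *Mfsd2a*, a lipid carrier that limits transcytosis, had 2.92 but only 67 UMIs. *Slc16a1* (lactate), *Spock2*, *Slc22a8* and *Itm2a* were not past the fold in both libraries, and *Slc38a5*, *Foxq1* and *Foxf2* had 17 UMIs or fewer each. Of 6 genes of fenestrated, leaky vessels, 3 were past the fold upwards, with a median of 1.90. *Plvap*, the diaphragm protein of fenestrae, had 35 UMIs at 0.224 (0.133–0.354) and 0.225 (0.131–0.361), a log2 ratio of 2.89 (2.29 to 3.42). It was seen in 6.48% of members.

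Caveola genes, whose products form the membrane pits of endothelium, were past the fold upwards in 6 of 7, with a median log2 ratio of 2.22. *Cav1* stood at 5.38 (4.89–5.91) and 2.64 (2.28–3.03) UMIs per 10000, against 0.738 and 0.404. Of 12 genes for nitric oxide, prostacyclin and haemostasis, 6 were past it: *Vwf*, the clotting factor carrier, had a log2 ratio of 5.06 (4.86 to 5.26) and *Nos3*, the endothelial nitric oxide synthase, 4.85 (4.56 to 5.15). Of 8 leukocyte adhesion genes, 7 were past it, with a median of 3.74, and *Cd99l2* was the exception at -0.44. Of 13 genes for antigen presentation and interferon responses, 8 were past it, among them *Ly6c1* (5.10), *Ly6a* (4.62) and *H2-K1* (1.78), a class I heavy chain. Class II genes *H2-Aa*, *H2-Ab1* and *Cd74* were not, with 0.57, 0.42 and 0.31. Basement membrane genes were past it in 4 of 10, led by *Lama5* at 2.86, while *Lamc1*, *Lamb1* and *Nid1*, which glia and fibroblasts also make, ran from -0.19 to 0.40. Notch pathway genes were past it in 5 of 10, *Dll4*, *Notch4*, *Dll1*, *Jag1* and *Notch1*, while *Rbpj*, the common nuclear effector, was at 0.23. The lymphatic and tip cell lists did not stand out: 1 of 5 and 1 of 3 compared were past the fold (*Flt4* and *Dll4*, which are on other lists too), *Prox1*, the lymphatic master factor, had 11 UMIs, *Lyve1* 5 and *Ccl21a* 0.

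The rule genes had a median log2 ratio of 5.94 and are left out of the ranking that follows. Over all genes outside the rule, the 20 genes with the highest log2 ratio among those with at least 50 UMIs ran from 5.69 to 7.27. Non-coding RNAs were among them: *Mannr* at 0.847 (0.658–1.07) and 0.597 (0.435–0.798) UMIs per 10000 against 0.00361 and 0.00523, *Fendrr*, next to *Foxf1*, with a log2 ratio of 7.03 (6.16 to 8.11), and *Mecomos*, antisense to *Mecom*, with 5.69. Reads of an antisense gene and its partner may not be told apart here. Known vessel genes were *Robo4* (5.73), *Clec14a* (5.86), *Ccm2l* (6.07), *Bmx* (6.44), *Tie1* and *Tal1*. *Zfp366* (6.36), *Dipk2b* (6.73), *Nr5a2* (6.55), *Pkn3* (5.97) and *Gimap8* (5.76) were among them too, with *Sox17*, *Gkn3*, *Selp*, *Gm5127* (6.23), *Pkhd1l1* (5.77) and *1010001N08Rik* (5.98). Among genes at a level of at least 1 in the other nuclei, the 8 with the lowest ratio ran from -3.93 to -3.32. They included *Kctd16*, a partner of GABA-B receptors, at 0.922 (0.724–1.16) and 0.610 (0.446–0.813) against 7.97 and 8.06, with *Thsd7b*, *Cntnap5a* and *Cntnap5c*, genes of neuronal surfaces, and *Gm6994*, *Gm20642*, *Gm49678* and *1700111E14Rik*.

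Markers of other cell types were read over whole lists in the same nuclei, with the level of the list in the female, the male and the other nuclei. Neuron markers stood at 33.2, 42.9 and 79.2 UMIs per 10000 (most abundant *Tubb3*), none of 12 past the fold upwards and 4 downwards. Schwann cell markers stood at 12.4, 21.8 and 20.6 and satellite glia markers at 13.4, 14.8 and 15.8 (*Apoe*), with none of 9 past the fold in each. Fibroblast markers stood at 8.06, 8.71 and 7.24 (*Dcn*), barrier fibroblast markers at 3.13, 2.66 and 3.49 (*Slc6a20a*) and macrophage markers at 0.872, 1.01 and 1.13 (*Mrc1*), with none past the fold. Mural markers stood at 2.97 (2.60–3.37), 7.97 (7.34–8.63) and 1.25 (*Rgs5*), with 5 of 9 past the fold upwards. Adipocyte markers stood at 7.38 (6.79–7.99), 1.66 (1.38–1.97) and 2.20 (*Pparg*), with 2 of 7 past it, and granule cell markers at 3.74, 0.809 and 2.06 (*Reln*), with none of 5. Haemoglobin genes *Hbb-bs*, *Hbb-bt* and *Hba-a1* were past the fold upwards, and red cell and platelet markers stood at 7.36, 8.11 and 3.30. *Gp9*, a platelet gene, was the 1 marker of these lists with no UMI in the endothelial nuclei. Neuronal RNA was thus below the level of the other nuclei but present in both libraries, and the part of free RNA in it was not tested. In the 281 nuclei mural markers stood at 1.16 and 1.40 in the female and the male library, and adipocyte markers at 2.41 and 1.01, while neuron markers stood at 19.5 and 45.1. The mural level is set in part by leaving out the nuclei that meet the mural rule, so its fall is not a result. Nuclei that met the mural, macrophage or barrier fibroblast rule but not the endothelial rule numbered 94, 193 and 800. They had the listed transcription factors at 10.7, 19.6 and 4.43 UMIs per 10000, against 29.3 in the endothelial nuclei, and barrier genes at 7.48, 9.82 and 14.0, against 37.4.

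Arterial, capillary and venous genes were read first over all members. Of 18 arterial genes, 14 were past the fold upwards, with a median log2 ratio of 4.49. *Mecom*, a transcription factor of arterial fate, stood at 23.4 (22.4–24.5) and 16.4 (15.5–17.3) UMIs per 10000 against 0.896 and 0.437, *Bmx*, a kinase of large vessels, at 2.92 (2.55–3.31) and 1.91 (1.61–2.25), and *Gkn3*, which marks brain arteries, at 0.212 (0.123–0.339) and 0.530 (0.379–0.722). *Nebl* and *Unc5b* had log2 ratios of 0.07 and 0.47. Of 13 venous genes, 9 were past it, with a median of 3.19, but *Nr2f2* and *Ackr1*, which are the classical venous factor and chemokine receptor, were not, with 0.26 (0.06 to 0.46) and -0.46 (-0.85 to -0.11). Of 14 capillary genes, 6 were past it, with a median of 0.49. *Car4*, the capillary carbonic anhydrase, stood at 0.336 (0.222–0.489) and 0.318 (0.204–0.473), and *Rgcc*, *Sgk1* and *Tfrc* had log2 ratios of 0.47, 0.51 and -0.10.

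To see whether vessel genes go together within the group, nuclei were picked by a few seed genes of each kind, and the other genes of the lists were read in them. The seeds were *Gja4*, *Gja5*, *Sema3g*, *Bmx*, *Hey1* and *Dll4* for arteries, *Car4*, *Rgcc*, *Btnl9*, *Gpihbp1* and *Cd300lg* for capillaries, and *Nr2f2*, *Ackr1*, *Selp*, *Vcam1* and *Lrg1* for veins. UMIs of arterial seeds alone were found in 67 nuclei (15.5%), of capillary seeds alone in 36 (8.33%) and of venous seeds alone in 79 (18.3%). 83 nuclei had none, 85 had arterial and venous seeds, and 35 had all 3, with a median of 6760 UMIs per nucleus against 1806 in those with none. Seed classes therefore follow the depth of a nucleus in part, and the classes of 1 seed list had medians of 2221, 2331 and 2535 UMIs.

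The 12 arterial genes outside the seeds summed to 54.3 UMIs per 10000 (50.9–58.0) in arterial-seed nuclei, 32.8 (30.5–35.1) in venous-seed nuclei and 19.4 (16.8–22.4) in capillary-seed nuclei. The order was the same in both libraries, with 57.9, 36.1 and 19.7 in the female and 49.6, 29.4 and 19.0 in the male. The lead of arterial-seed over venous-seed nuclei rests on the choice of venous seeds: its log2 ratio was 0.73 (0.59 to 0.87), and 0.18 (0.03 to 0.33) when *Nr2f2* and *Ackr1* were left out of them. The 11 venous genes outside the seeds summed to 28.0 (26.0–30.2) in venous-seed nuclei, 10.1 (8.63–11.7) in arterial-seed and 5.47 (4.11–7.13) in capillary-seed nuclei. Venous-seed nuclei led in both libraries, at 29.0 and 27.1, while the lower classes changed places, with 13.6 and 4.38 in the female and 5.50 and 7.11 in the male. The 10 capillary genes summed to 17.1 (14.6–19.9) in capillary-seed nuclei, against 11.8 (10.2–13.6) and 9.79 (8.59–11.1). This was seen in the female library, at 22.1 against 12.2 and 11.2, while the male values of 9.65, 11.3 and 8.39 gave a log2 ratio of 0.04 (-0.52 to 0.54) for capillary-seed nuclei over the others. Barrier genes stood at 42.4 in arterial-seed, 39.9 in capillary-seed and 49.5 in venous-seed nuclei, with 34.7, 40.9 and 42.3 in the female and 52.5, 38.3 and 56.7 in the male library.

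**Figure D3:**
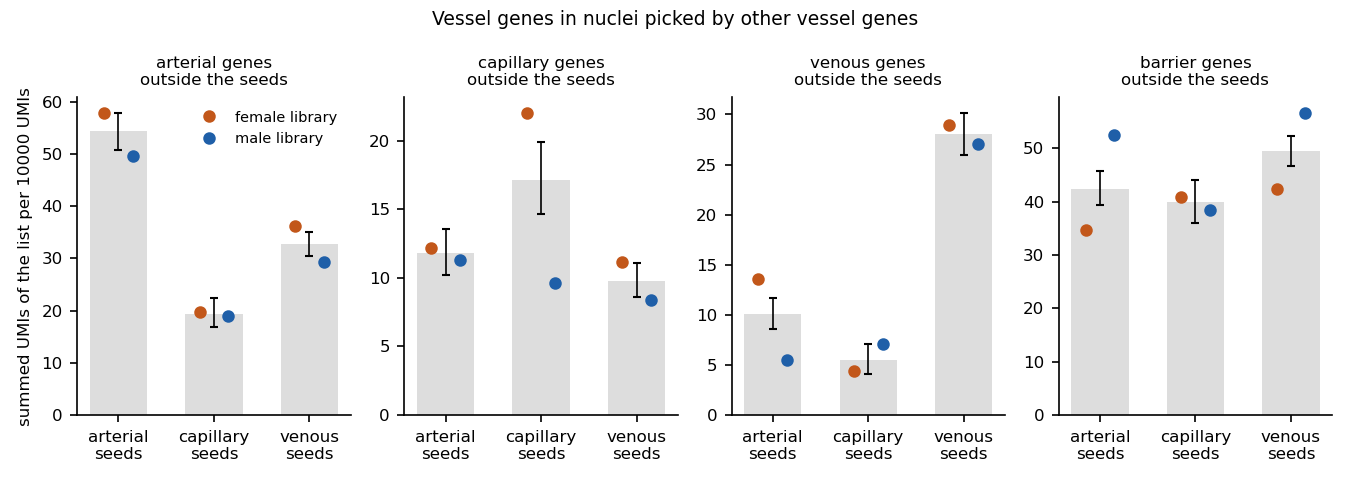
Summed level of each list, in UMIs per 10000 UMIs, in nuclei with UMIs of arterial, capillary or venous seed genes alone (67, 36 and 79 nuclei). Bars are both libraries with 95% Poisson intervals and points are each library, and arterial and venous genes are highest in the nuclei of their own seeds in both libraries, the arterial ones by a log2 ratio of only 0.18 over venous-seed nuclei without *Nr2f2* and *Ackr1* as seeds.

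Single genes carried these sums unevenly. *Il1r1*, the interleukin 1 receptor, stood at 0.475 UMIs per 10000 in arterial-seed nuclei, 0.304 in capillary-seed and 7.04 in venous-seed nuclei, with 8, 3 and 172 UMIs. *Vwf* stood at 2.31, 2.02 and 5.90, and *Icam1*, a leukocyte adhesion molecule, had 3, 0 and 24 UMIs. The venous class was the high one for all of these in the female and the male library apart. *Lepr*, the leptin receptor, had 4, 9 and 34 UMIs. On the arterial side *Vegfc*, a lymphatic growth factor, stood at 4.51, 1.01 and 1.31, and *Nebl* at 9.49, 2.13 and 5.32. *Mecom* was high in every class, at 31.2, 10.3 and 21.3. *Cxcl12*, a chemokine of the arterial list, stood at 2.08, 2.63 and 0.573, lowest in venous-seed nuclei of both libraries, while the order of the upper classes differed between the libraries. *Edn1*, the gene of endothelin 1, went opposite ways: it stood at 0.417 in arterial-seed and 1.71 in venous-seed nuclei of the female library, and at 2.61 and 0.823 in the male library. Of the capillary genes, *Spock2* stood at 4.57, 6.07 and 2.83, but its upper classes changed places between the libraries, with 3.03 in arterial-seed and 6.40 in capillary-seed nuclei of the female library and 6.60 and 5.59 in the male. The barrier list holds it too. Of the others, *Tfrc*, the transferrin receptor, had 6, 10 and 5 UMIs. *Fabp4* stood at 4.59, 7.58 and 4.49 in the female library and at 0.687, 0.254 and 1.89 in the male. *Cd36* stood at 0.626, 2.36 and 1.22 in the female library and at 0.275, 0 and 0.329 in the male. *Pparg*, an adipocyte marker, had 11, 30 and 2 UMIs in the same classes. *Rgs5*, a mural marker, had 6, 24 and 23, with most of the 24 in female nuclei (3.70 per 10000, against 0.508 in male ones). *Pparg* was thus highest per 10000 in capillary-seed nuclei of both libraries, and *Rgs5* in those of the female library, while in the male library *Rgs5* stood at 1.73 in venous-seed nuclei. Their part in the capillary sums was not tested. In the 281 nuclei the log2 ratios of the held-out genes were 0.66 for arterial genes in arterial-seed over venous-seed nuclei and 1.89 for venous genes in venous-seed over arterial-seed nuclei, against 0.73 and 1.47 in all members. Capillary genes in capillary-seed over the other classes had 1.14, against 0.69.

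The clusters outside 4, 5 and 6 were read for vessel and barrier genes. As the cells were clustered on their expression, these values describe the clusters and test nothing. Cluster 7 (31 nuclei, 13 female and 18 male) is arterial-like: *Vegfc*, *Jag1*, *Nebl* and *Fbln5* of the arterial list were among its 10 leading genes, and arterial genes summed to 109 UMIs per 10000 (97.3–121) in the female and 87.5 (78.8–96.9) in the male nuclei. Cluster 2 (85 nuclei, 44 and 41) is venous-like, led by *Il1r1* and *Tmem252* of the venous list with *Cysltr1* and *Ptgs2*, and venous genes summed to 39.6 (35.6–44.0) and 42.7 (38.9–46.7). Cluster 1 (109 nuclei, 42 and 67) was the highest in barrier genes, at 92.1 (86.1–98.4) and 71.7 (68.1–75.5), and 4 mural genes stood among its 10 leading genes, so that it was given no name. 18 of its nuclei met the mural rule. The other 91 had no mural gene among their 10 leading genes, which included *Nr5a2*, *Rsad2*, *Robo4*, *Mfsd2a*, *Slc7a5* and *Slco1c1*. Mural markers stood at 1.47 in them, against 13.9 in all 109, a fall set in part by the rule that left nuclei out. *Slco1c1* stood at 3.26 and 3.46 in cluster 1 and at 0.442 and 0.731 in cluster 2. *Abcg2* was nearer between them, at 15.1 and 11.2 in cluster 1 and 6.96 and 8.87 in cluster 2.

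Cluster 3 stood apart from these. It has 75 nuclei, 63 of them female and 12 male, and as most of them come from 1 library, a cell type and a property of that library cannot be told apart, so that it is not named. Its leading genes included *Adh7*, *1010001N08Rik*, *Bmp4*, *Pkhd1l1* and *Gata6*. *Pkhd1l1* stood at 8.67 UMIs per 10000 in its female and 8.66 in its male nuclei, and *Gata6* at 2.64 and 4.01. Arterial genes summed to 75.7 (71.6–79.9) and 64.4 (57.4–72.0) and venous genes to 27.7 (25.2–30.3) and 26.4 (22.0–31.4), both high in the same nuclei. Barrier genes summed to 4.63 (3.67–5.77) and 6.33 (4.27–9.04), below every other cluster in both libraries. *Slco1a4* had 2 and 1 UMIs, *Abcb1a* 3 and 0, *Lef1* 0 and 0, and *Mfsd2a* 0 and 0. The rule genes themselves were unequal: *Pecam1* stood at 19.2 and 18.2, against 6.72 and 4.06 in cluster 1, while *Flt1* stood at 1.29 and 0.844, against 29.4 and 19.1, and *Emcn* had 12 and 0 UMIs. *Nos3* stood at 4.75 and 2.32. The clustering put nuclei together by such genes, so that their likeness between the libraries is no support, and the male values rest on 12 nuclei.

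**Figure D4:**
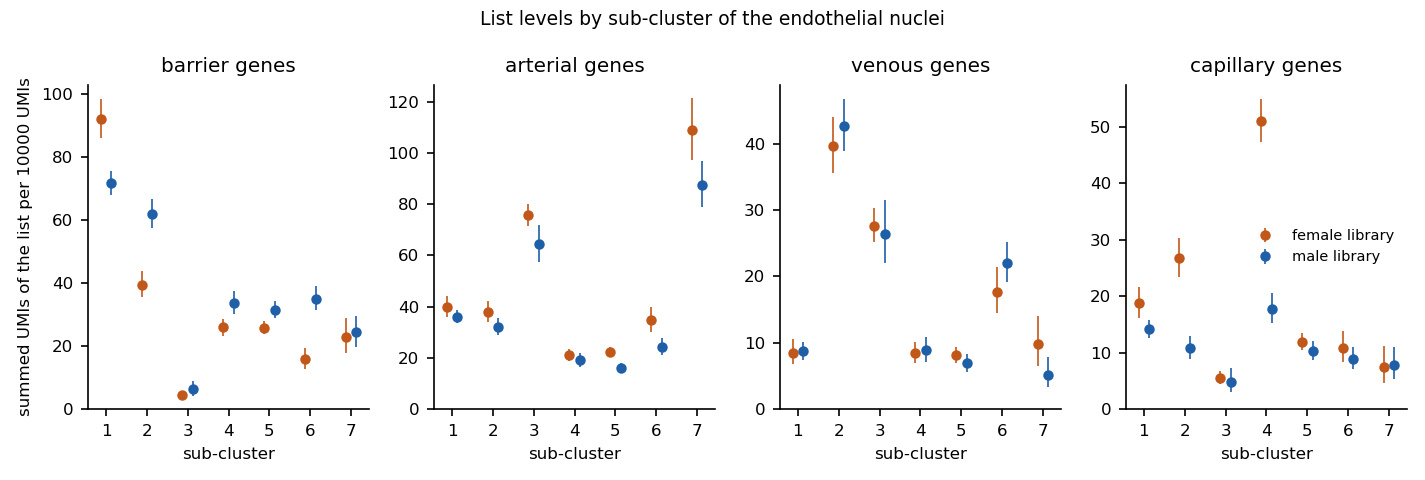
Summed level of the barrier, arterial, venous and capillary lists in UMIs per 10000 UMIs (y axes) for each of the 7 clusters (x axes), by library, with 95% Poisson intervals. Cluster 1 has the highest barrier level and cluster 3 the lowest in both libraries, cluster 7 the highest arterial level, cluster 2 the highest venous level, and cluster 4 the highest capillary level with a wide gap between the libraries.

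Between the libraries, sex-linked genes came first as a check of the labels. *Xist*, made from the inactive X chromosome, had 666 UMIs in female and 1 in male endothelial nuclei, and *Uty*, *Ddx3y*, *Eif2s3y* and *Kdm5d* of the Y chromosome had 0 in female and 135, 61, 67 and 50 in male nuclei. The labels and the genes thus go together in this group. Of 10195 genes with at least 20 UMIs, 844 (8.28%) were at least 2-fold higher in the male and 619 (6.07%) in the female endothelial nuclei, with a median log2 ratio of -0.003. After the sex-linked genes, the largest differences included *Dbh* and *Slc6a2*, genes of noradrenaline neurons, higher in the male (log2 3.97 and 3.45), and *Nxph1*, *Trhde* and *Kcnd2*, neuronal genes, higher in the female (-6.81, -4.97 and -4.61 as male over female). All 5 differed in the same direction in the other nuclei, with log2 ratios of 3.0 and 2.67 and of -2.07, -3.44 and -2.60.

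Of 17 barrier genes, 5 were past the fold to the male side and none to the female side, and of 14 capillary genes, 1 and 4. No receptor of 13 was past it, and of 17 transcription factors *Klf2* alone was, at 1.26 (1.02–1.53) in the female and 2.58 (2.23–2.97) in the male nuclei. *Slco1c1*, *Slc2a1* and *Mfsd2a* had log2 ratios of male over female of 1.28 (0.82 to 1.78), 1.13 (0.77 to 1.51) and 1.30 (0.54 to 2.16), while in the other nuclei they had -0.06, -0.09 and -0.40. *Ly6c1*, a surface protein of brain and nerve endothelium, stood at 0.735 (0.560–0.948) and 2.0 (1.70–2.35). These genes were higher in male than in female endothelial nuclei but not in the other nuclei. On the female side *Fabp4*, a fatty acid carrier of capillary endothelium and fat cells, stood at 8.24 (7.62–8.89) and 1.38 (1.13–1.67), and *Cd36*, a fatty acid translocase of both, at 2.98 (2.61–3.38) and 0.345 (0.225–0.505). In the other nuclei these were also higher in the female library, at 1.86 and 0.304 for *Fabp4* and 0.5 and 0.103 for *Cd36*. The adipocyte markers *Pparg* and *Ucp1* moved with them, with 264 and 82 UMIs in the female and 39 and 4 in the male endothelial nuclei, and their part in the difference was not tested. *Nos3* stood at 1.79 (1.51–2.11) and 0.716 (0.538–0.934), and *Cav1* at 5.38 and 2.64. In the other nuclei *Cav1*, and *Pecam1* of the rule, were also higher in the female library, by the levels given above.

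The ratios were also taken in other sets of nuclei. In the 281 nuclei *Slco1a4*, *Abcb1a* and *Abcg2* had log2 ratios of 0.55 (0.29 to 0.81), 0.57 (0.26 to 0.89) and 0.55 (0.29 to 0.81), close to 0.54, 0.64 and 0.52 in all members. With cluster 3 left out as well (206 nuclei, 96 female and 110 male), they had -0.07 (-0.32 to 0.19), -0.03 (-0.34 to 0.29) and -0.03 (-0.29 to 0.24), and *Slco1c1* 0.16 (-0.55 to 0.91). Cluster 3, formed on expression, is the lowest in barrier genes and has 63 female and 12 male nuclei, so that leaving it out must raise the female barrier level, and this fall is set by the choice of nuclei and is not a result. Summed barrier genes were then 60.6 UMIs per 10000 in the female and 57.3 in the male nuclei, against 29.9 and 45.5 in all members. This closeness is one of the total. Clusters 1 and 2 went opposite ways when all of their nuclei were counted, including those left out of the 206. Barrier genes then stood at 92.1 in female and 71.7 in male nuclei of cluster 1, and at 39.5 (35.5–43.8) and 62.1 (57.5–66.9) in cluster 2. Neuron markers also differed between the libraries in the 206 nuclei, at 22.0 in the female and 47.2 in the male, and their part in these ratios was not tested. *Fabp4*, *Cd36*, *Cav1*, *Elk3* and *Nos3* kept the female side in the 206 nuclei, at -2.34 (-2.94 to -1.82), -2.80 (-4.07 to -1.83), -1.08, -1.22 and -0.98. *Pparg* did too, at -2.80, with 35 UMIs left. *Rgs5* had 1.90 (1.5 to 2.33) in all members and 0.56 (-0.58 to 1.86) in the 206 nuclei, a fall set in part by leaving out nuclei by a mural rule that uses *Rgs5* itself. How the ratios of 15 genes shift over the sets is shown in the plot of male against female levels. *Slco1c1*, *Slc2a1*, *Mfsd2a* and *Ly6c1*, which were past the fold to the male side in all members, are among them.

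**Figure D5:**
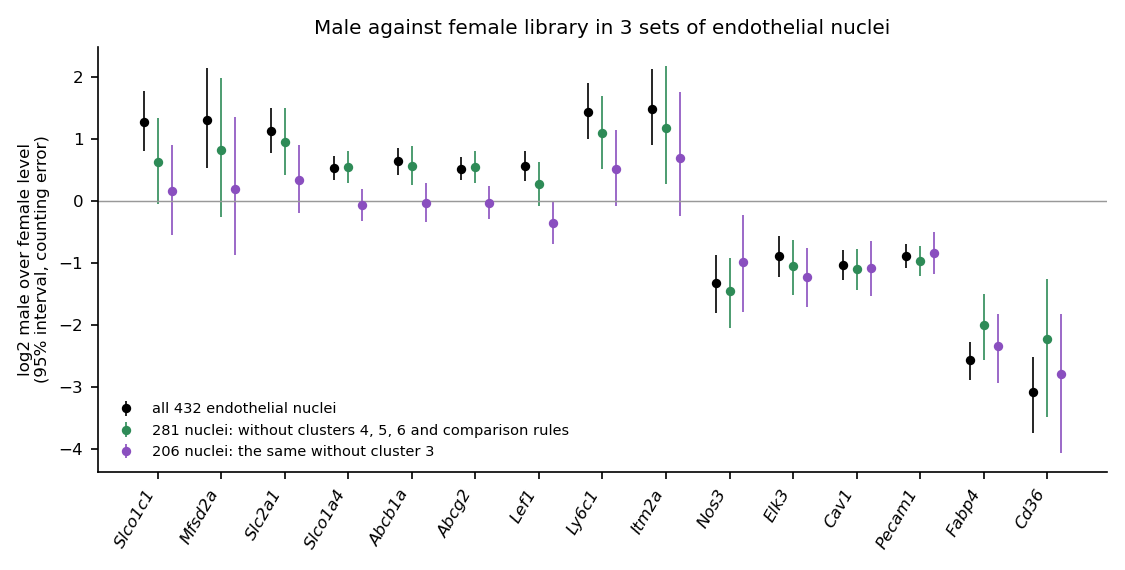
Log2 ratio of the male over the female level of 15 genes in all 432 endothelial nuclei, in 281 nuclei and in 206 nuclei without cluster 3, with 95% intervals for counting error. *Slco1a4*, *Abcb1a* and *Abcg2* lie near 0 when cluster 3, low in barrier genes and mostly female, is left out, which that choice of nuclei sets, while *Nos3*, *Elk3*, *Cav1*, *Pecam1*, *Fabp4* and *Cd36* on the right stay below 0 in each set.

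The eGFP entry of the counts had 0 UMIs in the 432 endothelial nuclei, which allows a level of up to 0.0193 UMIs per 10000. It had 1 UMI in the 8282 others, so that it could not be used to set nuclei apart at this depth. The paper gives the sequence added to the genome as the human growth hormone poly(A) of AAVrg-Cre, and does not name eGFP there.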

How the data were processed

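The authors isolated nuclei from pooled vagus nerve ganglia and made 1 droplet library of each sex. They deposited whole UMI counts per gene and nucleus, made with Cell Ranger 7.1.0 on mm10 with an added transgene, introns included. Per the study's methods, debris was removed with DIEM and libraries were joined by cellranger aggr, which evens out mapped reads, so the counts are not all those sequenced. Nuclei had been kept by debris score, number of genes and number of UMIs.

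Here UMIs were summed over nuclei. The female library held 17435300 and the male library 27529730 UMIs. Ratios had 0.5 UMIs added to both sums and exact conditional binomial intervals at 95%. Genes needed 20 UMIs to be compared (against other nuclei, observed and expected UMIs together), and past the fold is a log2 ratio of at least 1 in both libraries against other nuclei. The text names genes of fixed lists and the 20 highest against other nuclei outside the rule genes (50 UMIs or more). It also names from the 8 lowest against other nuclei (at a level of at least 1 in those) and the 6 most different each way between libraries. Clusters used 2000 variable genes, 15 principal components, 15 neighbours and Leiden resolution 0.6 (scikit-learn 1.9.0, igraph 0.11.9, leidenalg 0.10.2, Python 3.11.15). No doublet caller was run. Gene positions come from GENCODE on mm10. The ratio was tested on simulated Poisson counts with no spread between nuclei, mice or libraries. Such counts cannot show how the calls hold under that spread. Some genes of the lists and rules are not reported here. The members, rule and gene lists were chosen with earlier results of these data known, and alternatives are given at the end.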

Additional observations from a re-analysis of the deposited data

Results flagged for a closer look

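*Nxph1*, the gene of neurexophilin 1, had log2 ratios of opposite sign in the libraries. Its log2 ratio of endothelial over other nuclei was 1.75 in the female library, with 59 UMIs in the endothelial nuclei, and -2.98 in the male library, with 0 UMIs. This difference was not tested. It was seen in 1.16% of members, and 57 of its 59 UMIs lay in cluster 5, whose leading genes are neuronal. Over all genes, 12 were past the fold in opposite directions in the libraries, and of those named or listed *Nxph1* was the 1 such gene.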

How the results depend on the processing

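The share of endothelial nuclei followed the strictness of the rule: with at least 6 UMIs and 25 per 10000 it was 4.70% in female and 3.15% in male nuclei, and with at least 3 UMIs and 10 per 10000 it was 7.33% and 4.63%. Without *Pecam1* in the rule the female share was 5.17%, and without *Flt1* the male share was 3.25%. Without a filter on low counts 2435 genes were past the fold upwards and 1267 downwards against other nuclei. Between libraries, a minimum of 50 UMIs left 464 genes higher in the male and 314 in the female nuclei, as fewer genes were compared. In the 281 nuclei the counts were 592 and 418 of 6681 genes compared, with 303 and 167 genes shared with the counts of all members. In the 281 nuclei less cluster 3 they were 473 and 252 of 5227, with 223 and 69 shared.

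The log2 ratio of venous genes in venous-seed over arterial-seed nuclei was 1.09 for female and 2.28 for male nuclei, and 1.89 in the 281 nuclei. Capillary genes in capillary-seed nuclei had 0.042 in the male library and 1.14 in the 281 nuclei. With *Nr2f2* and *Ackr1* left out of the venous seeds, the arterial, venous and capillary ratios were 0.18, 2.22 and 1.55. The cause was not tested. At Leiden resolution 1.0 there were 11 clusters, and 6 with genes centred within each library. Among listed or named genes at least 2-fold apart between the libraries in all members, male over female ratios changed sign for *Slc47a1* without possible doublets (0.22), for *Acsl1* (0.20), *Rbfox3* (0.16) and *Rbfox1* (0.011) in the 281 nuclei, and for *Acsl1* (0.033) and *Drp2* (-0.054) without cluster 3 as well. Among listed or named genes past the fold in both libraries against other nuclei, 621 values lay within the interval of all members, 385 outside it and none changed sign; genes not past the fold, and *Nxph1*, named by its difference between libraries, were not among them. The sets of 281 and 206 nuclei and the shorter venous seeds were chosen after seeing the data.

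No paired analysis was possible because each sex has 1 library. Of the tip cell and lymphatic lists, 3 of 9 and 5 of 10 genes had enough UMIs to be compared, and low depth and low expression cannot be told apart for the rest.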
